A study of Mus musculus with 2 samples.

Results

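Cells at the G1 to S boundary, called boundary cells here, were picked from 2 single-cell RNA libraries of mouse hematopoietic stem cells by 3 transcripts of that boundary, Ung, Ccne1 and Ccne2. A cell belonged to the set when the UMIs of these genes summed to at least 200 CPM in that cell. A UMI, or unique molecular identifier, stands for 1 captured RNA molecule, and CPM are counts per 1000000 UMIs. The set held 1234 of 7075 kept cells, with 1040 of 4580 in the DMSO library and 194 of 2495 in the RO-3066 library. Kept cells were barcodes with at least 5000 and fewer than 50000 UMIs, at least 500 genes, at most 10% mitochondrial UMIs and less than 0.3% of UMIs from Pf4, the gene of platelet factor 4. Because measured values chose the cells, the levels of the 3 genes and the sizes of the set are descriptions, and the results rest on other genes.

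The cells were mouse hematopoietic stem cells, labelled as blood, grown in suspension for 48 h in RO-3066 or in DMSO, the vehicle, and sequenced from transcript 3′ ends with the 10x Genomics droplet workflow. There was 1 library per condition. The target and dose of RO-3066, and the strain, genotype, age and number of mice and the way the cells were isolated, are not stated in the labels. With no replicate library no difference was tested: intervals are exact, at 95%, and cover counting error only, and an effect of RO-3066 and a difference between 2 libraries cannot be told apart.

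In G1, D-type cyclins and their kinases phosphorylate the RB proteins, which frees E2F transcription factors to switch on cyclin E, encoded by Ccne1 and Ccne2, and the genes of DNA replication. Cyclin E with CDK2 then helps to start DNA synthesis from origins that ORC, CDC6 and CDT1 have licensed by loading the MCM helicase. Ung encodes the uracil-DNA glycosylase that removes uracil from DNA around replication, replication-dependent histones are made during S phase, and mitotic genes are held low in G1 in part through short promoter elements. Most hematopoietic stem cells are quiescent in the bone marrow and enter the cycle when cultured.

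Over both libraries, 6160 DMSO barcodes held 188022321 UMIs and 3882 RO-3066 barcodes held 171821236. The libraries shared 7 barcode sequences, 3 of them among kept cells and 0 among boundary cells. Boundary cells held 22218712 UMIs in DMSO and 5478995 in RO-3066, against 86470954 and 64420885 in the other kept cells. The median boundary cell had 20947 UMIs and 4473 genes in DMSO and 30285 UMIs and 5369.5 genes in RO-3066, and the median other kept cell 23481 and 27072 UMIs. Stem cell markers (Procr, Hlf, Mecom, Ly6a, Slamf1 and Kit) summed to 337 CPM in DMSO boundary cells and 412 CPM in RO-3066 boundary cells, against 342 and 453 CPM in the other kept cells. The full stem cell list summed to 4705 against 4692 CPM in DMSO and to 3651 against 3765 CPM in RO-3066. Cd3e and Il7r of lymphocytes, Siglech of plasmacytoid dendritic cells and Car1 of erythroid cells had 0 UMIs in all kept cells. Hbb-bt, another erythroid gene, was at 330 CPM in DMSO boundary cells and 643 CPM in RO-3066 boundary cells.

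Promoter sequence is shown first for 3 of the 10 highest and 3 of the 10 lowest genes, to show the letters that were searched for. Windows of 300 bases around the start site, 250 before and 50 after, came from RefSeq (GRCm38.p6), and 9 of the 10 highest and 10 of the 10 lowest genes named later had one. One motif was the set of E2F letters TTTCCCGC, TTTGGCGC, TTTCGCGC or TTTGCCGC on either strand, found in 2.28% of all 32544 windows. The other was TTTGAA on either strand, the letters of a cell cycle homology region, found in 17.8%. Capitals mark the match, each sequence runs 5′ to 3′ along the gene's strand, and Cdc6, Uhrf1 and Dtl are from the highest genes and Ube2c, Cdc20 and Prc1 from the lowest. Positions are chr11:98908001-98908051 (plus strand) for Cdc6, chr17:56304113-56304163 (plus) for Uhrf1, chr1:191575545-191575604 (minus) for Dtl, chr2:164769869-164769928 (plus) for Ube2c, chr4:118437344-118437403 (minus) for Cdc20 and chr7:80294416-80294475 (plus) for Prc1. Each stretch lies before the start of the RefSeq window it was taken from. Uhrf1 and Prc1 have 2 windows with different starts. The Uhrf1 stretch is from the downstream window, the other one holding no E2F match, and the Prc1 stretch runs across the start of its other window.
Cdc6: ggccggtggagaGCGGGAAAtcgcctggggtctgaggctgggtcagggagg
Uhrf1: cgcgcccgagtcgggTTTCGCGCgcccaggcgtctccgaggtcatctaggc
Dtl: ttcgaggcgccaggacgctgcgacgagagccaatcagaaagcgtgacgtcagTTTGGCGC
Ube2c: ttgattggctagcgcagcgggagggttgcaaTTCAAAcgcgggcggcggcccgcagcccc
Cdc20: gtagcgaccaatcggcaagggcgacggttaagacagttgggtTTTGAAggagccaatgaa
Prc1: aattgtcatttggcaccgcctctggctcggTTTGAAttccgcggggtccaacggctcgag

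Matches were counted per gene, over every window it has, and per window, as in the background: the 9 highest genes had 11 windows and the 10 lowest had 11. The E2F letters were in 4 of the 9 highest genes (Cdc6, Uhrf1, Dtl and Clspn) and in 4 of their 11 windows, and in 0 windows of the lowest. Dropping the first T, so that the longer letters are contained in the shorter, gave 7 of 11 windows (6 of 9 genes) and 2 of 11 (2 of 10), against 9.64% of all windows. TTTGAA was in 1 of 11 windows for 1 of 9 genes (Wdr76) and in 7 of 11 for 6 of 10 (Ube2c, Cenpf, Hmmr, Cdc20, Cenpa and Prc1). CCAAT, the letters read by the factor NF-Y, was in 7 of 11 windows (6 of 9 genes) and 10 of 11 (9 of 10), against 37.4% of all windows. Windows of Ung and Ccne1 held none of these letters, and Ccne2 was not matched to a window. A match says only that the letters are in the window.

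The 3 genes lie at chr5:114130386-114139323 (Ung), chr7:38097984-38107534 (Ccne1) and chr4:11191351-11204779 (Ccne2) in mm10. By construction they were high in the boundary cells. Ccne2 was at 190.0 CPM in DMSO boundary cells against 31.1 CPM in other kept cells, and at 165 against 21.4 CPM in RO-3066. Ung was at 64.9 against 9.64 CPM in DMSO and at 70.5 against 8.60 CPM in RO-3066, and Ccne1 at 57.6 against 9.97 and at 45.6 against 5.34 CPM. Ccne2 supplied most of the UMIs that chose a cell in both libraries.

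Few molecules decided membership. The median boundary cell had 6 UMIs of the 3 genes in DMSO and 8 in RO-3066, with a range of 2 to 19 and 2 to 18, and 31 DMSO cells (2.98%) and 27 RO-3066 cells (13.9%) were chosen on 3 or fewer. In DMSO the cell nearest inside the limit had 4 UMIs of 20000 (200 CPM) and the nearest outside 5 of 25012 (199.90 CPM). The RO-3066 pair had 2 UMIs of 9999 (200.02 CPM) and 7 of 35035 (199.80 CPM). Between 200 and 220 CPM lay 131 DMSO and 32 RO-3066 boundary cells, and from 180 to 200 CPM lay 161 and 31 cells outside.

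Most boundary cells carried several of the 3 transcripts at once, which a limit on their sum makes more likely by construction. All 3 genes had a UMI in 480 DMSO boundary cells (46.2%, 43.1 to 49.2) and in 107 RO-3066 boundary cells (55.2%, 47.9 to 62.3), against 2.97% and 2.48% of other kept cells. Ung with Ccne2 was next, in 249 cells (23.9%) and 41 cells (21.1%), then Ccne1 with Ccne2 in 211 (20.3%) and 23 (11.9%). Ccne2 alone was seen in 83 (7.98%) and 16 (8.25%). A UMI was detected for Ung in 71.6% and 79.9% of boundary cells, for Ccne1 in 67.9% and 67.5% and for Ccne2 in 98.4% and 96.4%.

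No cell type in these cultures is known to lack all 3 transcripts, so the tenth of kept cells richest in G2 and M phase UMIs served as the reference for free RNA. The median depth was 28321 UMIs in these 458 DMSO cells and 19513.5 UMIs in these 250 RO-3066 cells. Ung was seen in 2.62% and 2.0% of them, Ccne1 in 4.59% and 2.40% and Ccne2 in 18.1% and 20.8%. Each share was below that of the other kept cells, where Ung was seen in 18.2% and 16.7%, Ccne1 in 19.3% and 12.2% and Ccne2 in 44.4% and 36.2%. The other kept cells, at median depths of 23481 and 27072 UMIs, include all 458 of the DMSO cells and all but 3 of the 250 RO-3066 cells. Whether the UMIs in the reference came from free RNA or from the cells was not tested.

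The 3 transcripts also went together when 1 was kept out of the choice. Cells were chosen by the other 2 genes at 100 CPM or more with at least 2 UMIs, and the gene left out was then measured. Ung was 4.08-fold higher (3.74 to 4.46) in the 1588 DMSO cells chosen by Ccne1 and Ccne2 than in the rest, and 4.48-fold (3.92 to 5.11) in the 308 RO-3066 cells. Ccne1 was 3.63-fold (3.32 to 3.97) and 6.05-fold higher (5.14 to 7.14), and Ccne2 was 2.72-fold (2.59 to 2.86) and 3.88-fold higher (3.5 to 4.29).

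Boundary cells were 22.7% (21.5 to 23.9) of kept DMSO cells and 7.78% (6.75 to 8.90) of kept RO-3066 cells. When kept cells under 10000 UMIs were left out and the rest thinned to 10000 UMIs and called again, the shares were 29.8% and 12.3%. In thinned cells the same number of UMIs meets the limit in every cell, while the call on full counts asks more UMIs of deeper cells. The thinned shares therefore come from a different call, and its part in the rise was not tested. The boundary cells sat at different depths in each library. In DMSO 35.8% of them had 15000 to 19999 UMIs and 41.0% had 20000 to 24999, and within these bands 32.3% (29.6 to 35.1) and 31.9% (29.4 to 34.4) of kept cells were boundary cells. In RO-3066 boundary cells were 1.81% (0.668 to 3.90) and 1.90% (0.824 to 3.71) of the same bands. The share there was 9.69% at 25000 to 29999 UMIs and 12.1% (9.64 to 14.9) from 30000 to under 40000, a band that held 39.7% of the RO-3066 boundary cells. From 30000 UMIs up the DMSO share was 4.93% and then 6.17%.

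**Figure D1:**
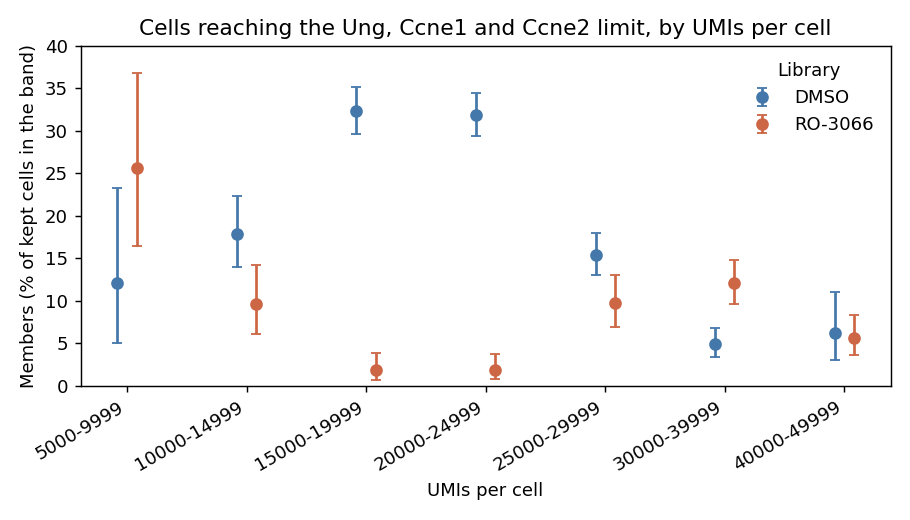
Percentage of kept cells (vertical axis) that reached the Ung, Ccne1 and Ccne2 limit within bands of UMIs per cell (horizontal axis), in the DMSO and RO-3066 libraries, with exact 95% intervals as bars. The DMSO share was highest between 15000 and 24999 UMIs (32.3% and 31.9%), where the RO-3066 share was 1.81% and 1.90%.

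The shallowest RO-3066 cells also had a high share, 25.6% (16.4 to 36.8) of 78 cells under 10000 UMIs, where 2 UMIs were enough to qualify. Boundary cells under 15000 UMIs were 42 in RO-3066 (21.6%) and 69 in DMSO (6.63%). In these 42 cells the G2 and M phase list summed to 8590 CPM, against 11366 CPM in the 264 other RO-3066 cells under 15000 UMIs and 5945 CPM in the 152 deeper RO-3066 boundary cells. In DMSO the list summed to 4622 CPM in boundary and 4474 CPM in other cells under 15000 UMIs. In the same 42 RO-3066 cells Pclaf stood at 477 CPM, against 383 CPM in the deeper ones. Without the cells under 15000 UMIs, left out after their values had been seen, RO-3066 boundary cells had 2531 CPM of licensing genes against 1882 CPM in other cells, 3954 against 2607 CPM of fork genes and 5945 against 8646 CPM of G2 and M phase genes.

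Genes outside the rule were compared between boundary cells and the other kept cells of the same library on UMIs summed over cells. A gene counted as higher or lower at 1.5-fold on log2 of CPM plus 1, if it had at least 20 CPM on either side. In DMSO 58 of 5601 genes were higher (1.04%) and 109 were lower (1.95%). In RO-3066 145 of 5794 genes were higher (2.5%) and 91 were lower (1.57%). Of the genes measured in both, 57 were higher in DMSO and 129 in RO-3066, and 38 were in both lists, which is 66.7% of the first and 29.5% of the second. Lower genes numbered 102 and 79, with 60 in common (58.8% and 75.9%), and no gene was higher in 1 library and lower in the other.

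The 10 genes that were highest in both libraries included Slfn9, Uhrf1, Cdc6, Rrm2, Zmynd19, Wdr76, Dtl, Clspn and E2f1. Slfn9, a Schlafen family gene, was at 133 against 56.4 CPM in DMSO (2.36-fold, 2.25 to 2.47) and at 179 against 66.7 CPM in RO-3066 (2.68-fold, 2.5 to 2.87). Dtl, the substrate receptor of the CRL4 ubiquitin ligase that removes CDT1 in S phase, was 1.88-fold and 1.78-fold higher. Clspn, or claspin, which works at the fork in the replication checkpoint, was at 141 against 80.7 CPM and at 181 against 97.9 CPM. Wdr76 was 1.83-fold and 2.01-fold higher and Zmynd19 1.86-fold and 1.93-fold.

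Gene lists were counted over genes of at least 5 CPM, where 1.13% and 1.78% of 9144 DMSO genes were higher and lower, and 3.31% and 2.16% of 9498 RO-3066 genes. The median log2 ratio of all these genes was -0.00 in DMSO and -0.01 in RO-3066.

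Origin licensing was the list with the highest median in DMSO. There 11 of 19 genes were higher and 1 was lower, with a median of 0.60 (log2), and in RO-3066 4 were higher and 1 lower, with a median of 0.40. Cdc6, which loads the MCM helicase, was at 65.0 against 25.2 CPM in DMSO (2.58-fold, 2.41 to 2.76) and at 65.0 against 29.0 CPM in RO-3066 (2.24-fold, 2.0 to 2.52). All 6 helicase subunits had higher levels in the boundary cells: in DMSO from 1.51-fold (Mcm7) to 1.85-fold (Mcm4), and in RO-3066 from 1.15-fold (Mcm3) to 1.62-fold (Mcm6). Cdt1, the other loading factor, was 1.70-fold higher in DMSO and 1.29-fold in RO-3066. Orc6, a subunit of the origin recognition complex, was 1.59-fold and 1.61-fold higher, while Orc1 was 1.65-fold in DMSO and 0.983-fold (0.742 to 1.28) in RO-3066. Dbf4, which activates the CDC7 kinase at licensed origins, was the lower gene in both libraries, at -0.77 and -0.63 on the log2 scale. In thinned cells the median was 24 licensing UMIs per 10000 in DMSO boundary cells against 16 in other cells, and 24.5 against 18 in RO-3066.

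Replication fork genes had levels above those of other cells in 35 of 35 cases in both libraries. Of these 12 passed 1.5-fold in DMSO (median 0.44) and 18 in RO-3066 (median 0.60), and 0 were lower. Pcna, the sliding clamp, was at 336 against 214 CPM in DMSO (1.57-fold, 1.53 to 1.62) and at 389.7 against 218 CPM in RO-3066 (1.79-fold, 1.71 to 1.87). Gins2, of the helicase complex, was 1.63-fold and 1.54-fold higher. Dna2, a nuclease that trims Okazaki fragments, was 1.80-fold and 2.28-fold higher, and Dscc1, of the clamp loader that acts in sister chromatid cohesion, 1.85-fold and 2.16-fold.

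Nucleotide supply had 2 of 18 genes higher in DMSO (median 0.33) and 8 in RO-3066 (median 0.54). Rrm2, the small subunit of ribonucleotide reductase, was at 128 against 70.9 CPM in DMSO (1.81-fold, 1.73 to 1.89) and at 125 against 53.4 CPM in RO-3066 (2.35-fold, 2.16 to 2.55). Thymidylate synthase, Tyms, was at 182 against 149.9 CPM in DMSO (1.21-fold) and at 207 against 97.5 CPM in RO-3066 (2.12-fold, 1.99 to 2.26). Thymidine kinase, Tk1, was 1.30-fold and 1.99-fold higher. For both genes RO-3066 was above DMSO in boundary cells and below DMSO in the other kept cells. For Tyms most of the difference between the libraries lay in the other kept cells. For Tk1 it lay in both classes, with a log2 ratio of RO-3066 over DMSO of 0.26 in boundary cells and -0.35 in other kept cells.

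Chromatin assembly at forks had 7 of 16 genes higher in DMSO (median 0.55) and 6 in RO-3066 (median 0.51), and 0 lower. Uhrf1, which brings the maintenance methyltransferase to new DNA, was at 139.5 against 61.7 CPM in DMSO (2.26-fold, 2.16 to 2.36) and at 168 against 76.0 CPM in RO-3066 (2.21-fold, 2.06 to 2.37). Slbp, which binds the stem-loop of histone messages, was 1.51-fold and 1.65-fold higher, and Chaf1b, a subunit of the histone chaperone CAF-1, 1.64-fold and 1.5-fold.

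Of the E2F and RB regulators, 4 of 17 genes were higher in DMSO and 5 in RO-3066, with medians of 0.24 and 0.18. E2f1, an activator, was at 63.0 against 30.6 CPM (2.06-fold, 1.93 to 2.20) and at 79.9 against 46.7 CPM (1.71-fold, 1.54 to 1.89). E2f2, another activator, was low, at 6.84 against 3.05 CPM and at 13.7 against 5.22 CPM. E2f7, a repressor made late in G1, was 1.73-fold higher in DMSO and 2.55-fold (2.14 to 3.01) in RO-3066, and the repressor E2f8 1.40-fold and 1.69-fold. Mybl2, a factor that carries the program on towards G2, was 1.60-fold and 1.82-fold higher.

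Cyclins and kinases of G1 had smaller ratios. Among 12 such genes 0 were higher and 1 lower in DMSO, and 3 higher and 0 lower in RO-3066, with medians of 0.12 and 0.15. Ccnd1, or cyclin D1, was at 32.7 against 22.9 CPM (1.43-fold) and at 41.4 against 20.6 CPM (2.01-fold, 1.74 to 2.32). The more abundant cyclin D2 gene, Ccnd2, was at 305 against 280.3 CPM (1.09-fold) and at 292 against 290.4 CPM (1.0-fold, 0.954 to 1.06). Cdk2, the partner of cyclin E, was 1.33-fold and 1.42-fold higher, and its activating phosphatase Cdc25a 1.36-fold and 1.44-fold. Ccna2, cyclin A2 of S phase and G2, was the lower gene, at 61.0 against 114 CPM (0.533-fold) in DMSO, and was at 63.0 against 77.5 CPM (0.812-fold) in RO-3066.

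Of 5 measured CDK inhibitors, Cdkn1a, the gene of p21, was higher and Cdkn2d, that of p19, lower in DMSO, and 0 passed 1.5-fold in RO-3066. Cdkn1a was at 26.9 against 15.7 CPM in DMSO (1.71-fold, 1.55 to 1.89) and at 51.7 against 54.6 CPM in RO-3066 (0.946-fold, 0.835 to 1.07). Both RO-3066 classes were above both DMSO classes. The RO-3066 log2 ratio had no settled direction over the alternatives, from -0.82 for cells chosen by Ung alone to 0.13 by Ccne1 and Ccne2. Those choices used a limit of 100 CPM with at least 2 UMIs, not 200 CPM. From 15000 to under 40000 UMIs the RO-3066 log2 ratio was -0.30. The DMSO log2 ratio was 0.48 in thinned calls, short of 1.5-fold. Cdkn1b, the gene of p27, was at 38.5 against 47.1 CPM and at 30.8 against 41.4 CPM.

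For base excision and mismatch repair 2 of 20 were higher in DMSO (median 0.07) and 1 in RO-3066 (median 0.26). Exo1, the nuclease of mismatch repair, was 1.55-fold and 2.03-fold higher, and Msh6 1.60-fold in DMSO and 1.23-fold in RO-3066. For homologous recombination and the checkpoint 3 of 35 genes were higher and 1 lower in DMSO (median 0.22), and 11 of 36 higher and 1 lower in RO-3066 (median 0.38). Brca1 was at 48.5 against 27.1 CPM (1.79-fold) and at 69.5 against 35.6 CPM (1.95-fold). The lower gene was H2afx in both, a histone variant gene, at 0.447-fold and 0.619-fold.

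**Figure D2:**
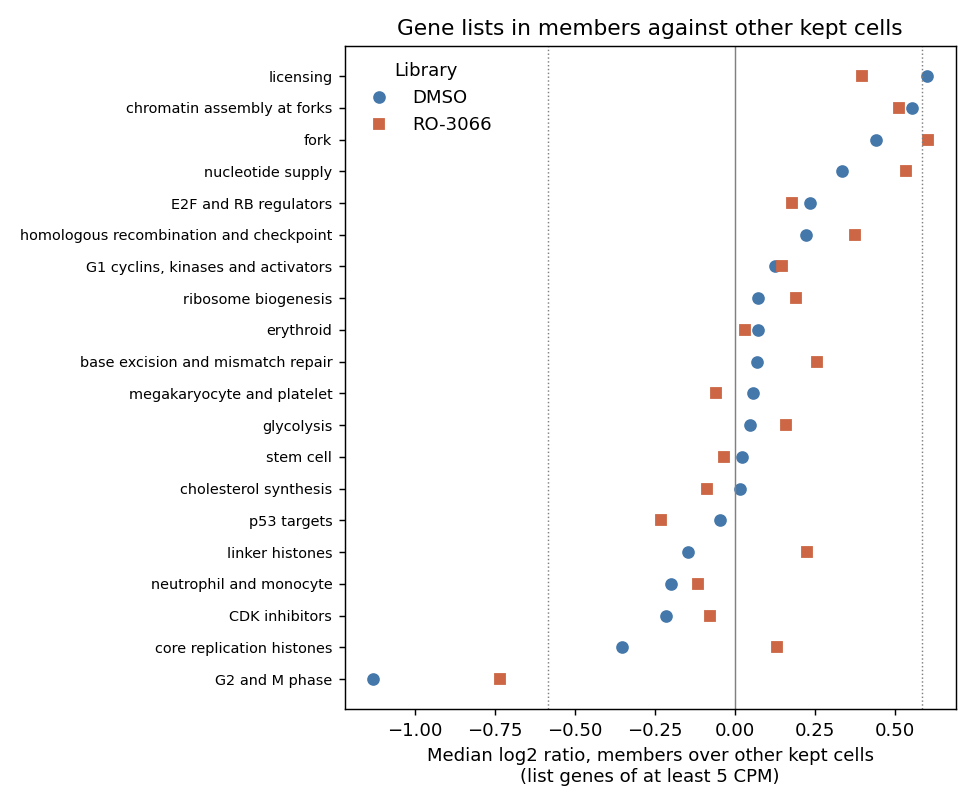
Median log2 ratio of boundary cells (members) over other kept cells for each list with at least 5 measured genes, in the DMSO library (circles) and the RO-3066 library (squares). Dotted lines mark 1.5-fold, and the G2 and M phase list is lowest in both libraries, at -1.13 and -0.73.

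Mitotic genes were the lowest group. Of 55 G2 and M phase genes 45 were lower in DMSO boundary cells and 30 in RO-3066 boundary cells, with 0 higher, and the medians were -1.13 and -0.73. Ube2c, the ubiquitin-conjugating enzyme of the anaphase-promoting complex, was at 31.2 against 406 CPM in DMSO (0.0769-fold, 0.0712 to 0.0829) and at 45.8 against 339.7 CPM in RO-3066 (0.135-fold, 0.119 to 0.153). Cenpf, a kinetochore gene, was at 37.0 against 254 CPM (0.146-fold) and at 69.4 against 277 CPM (0.251-fold). Ccnb1, or cyclin B1, which drives entry into mitosis, was at 30.5 against 106 CPM (0.287-fold, 0.265 to 0.310) and at 23.4 against 96.5 CPM (0.242-fold, 0.202 to 0.288). Plk1, a mitotic kinase, was at 0.176-fold and 0.261-fold. Hmmr, Cdc20, Cenpa, Nusap1, Prc1, Cenpe and Arl6ip1 completed the 10 lowest genes, from 0.165-fold to 0.408-fold in DMSO and from 0.162-fold to 0.403-fold in RO-3066.

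**Figure D3:**
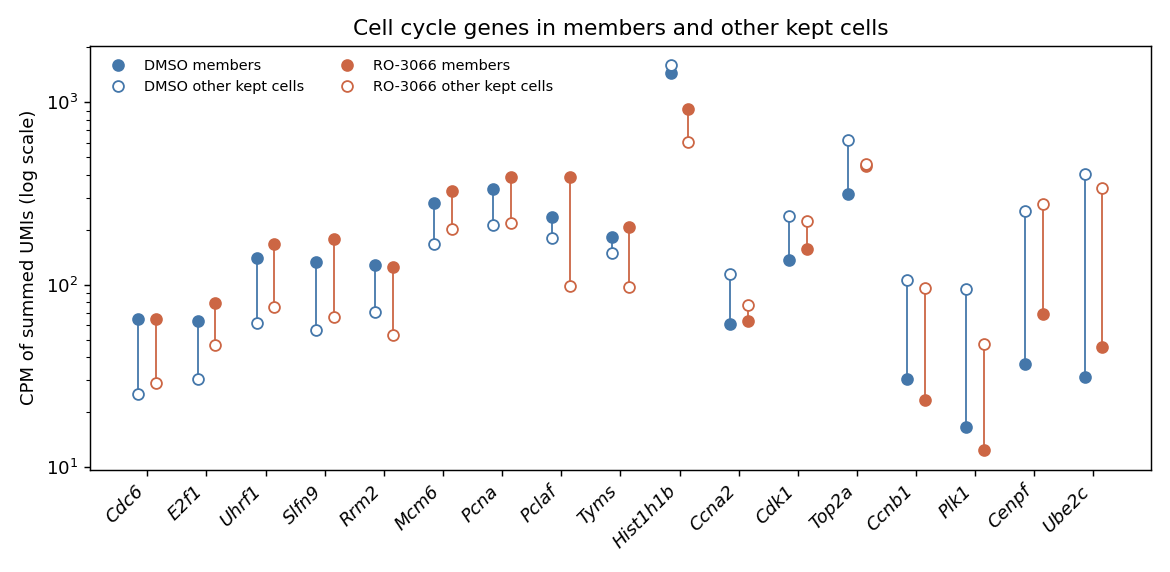
Level of 17 cell cycle genes (horizontal axis) in CPM of summed UMIs (vertical axis, log scale) in boundary cells (members, filled) and other kept cells (open) of the DMSO and RO-3066 libraries. Cdc6 stood at 65.0 CPM in the boundary cells of both libraries, and the difference for Pclaf was 1.30-fold in DMSO and 3.96-fold in RO-3066.

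Several genes separated boundary cells from the rest to a different extent in the libraries. Pclaf, which encodes a PCNA-binding factor, was at 234 against 180.1 CPM in DMSO (1.30-fold, 1.26 to 1.34) and at 390.4 against 98.5 CPM in RO-3066 (3.96-fold, 3.77 to 4.16). Without the cells under 15000 UMIs these levels were 233 against 187 CPM and 383 against 96.7 CPM. Among the cells under 15000 UMIs, 69 boundary and 335 other cells in DMSO, they were 259 against 46.4 CPM, and in RO-3066, with 42 and 264 cells, 477 against 134 CPM. Fbxo5, an inhibitor of the anaphase-promoting complex, was 1.08-fold in DMSO and 2.02-fold (1.84 to 2.22) in RO-3066. Akr1c13, an aldo-keto reductase gene, was at 0.825-fold and 1.57-fold. With cells chosen by Ung alone the Pclaf ratio was -0.15 in DMSO and 1.01 in RO-3066 (log2), and that of Fbxo5 in RO-3066 was -0.043.

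Other genes were lower in DMSO boundary cells by more than in RO-3066 ones. Top2a, the topoisomerase of S to M phase, was at 314 against 623 CPM in DMSO (0.503-fold, 0.491 to 0.516) and at 445 against 457 CPM in RO-3066 (0.973-fold, 0.933 to 1.01), where by Ung alone the ratio was -0.75 (log2). Spc25 of the kinetochore was at 0.448-fold and 0.975-fold, and Aurkb, the chromosomal passenger kinase, at 0.474-fold and 0.907-fold. Kif11, a spindle motor, was at 0.343-fold and 0.668-fold, and Nusap1, which binds spindle microtubules, at 0.165-fold and 0.338-fold. Cenpa and Ccnb2 went the other way: Cenpa, the centromeric histone, was at 0.317-fold and 0.162-fold, and Ccnb2, or cyclin B2, at 67.0 against 128 CPM (0.524-fold) and at 28.5 against 123 CPM (0.232-fold).

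Core replication histones were lower in DMSO boundary cells and had no settled direction in RO-3066. In DMSO 11 of 43 genes were lower and 1 higher (median -0.35), and in RO-3066 0 of 40 were lower and 1 higher (median 0.13). The RO-3066 median was -0.17 when cells were called after thinning, -0.01 with equal weight per cell and -0.90 for cells chosen by Ung alone, while the DMSO median stayed between -0.26 and -0.97 over the alternatives. The list summed to 2198 CPM in DMSO boundary cells against 2951 CPM in other kept cells, and to 1989 against 1844 CPM in RO-3066. Hist1h1b, a linker histone, was at 1449 against 1594 CPM (0.909-fold, 0.898 to 0.920) and at 917 against 607 CPM (1.51-fold, 1.47 to 1.56), but in cells chosen by Ung alone its log2 ratio was -1.04 in DMSO and -0.97 in RO-3066. Hist1h4c was at 21.8 against 40.7 CPM in DMSO and at 28.7 against 35.4 CPM in RO-3066. Hist1h2bc was higher in DMSO boundary cells, at 96.4 against 60.9 CPM. Near-identical histone copies share reads, and most replication histone messages lack a poly(A) tail, so single histone values are uncertain.

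The boundary cells held cells with few and cells with many histone messages. Per 10000 UMIs the median was 13 core histone UMIs in DMSO boundary cells (quartiles 8 and 34) and 27 in other cells (8 and 45). In RO-3066 it was 12.5 (7 and 29.75) and 9 (5 and 35). At least 20 such UMIs, a limit set after the distribution was seen, were found in 40.9% (37.8 to 43.9) of DMSO and 37.9% (30.7 to 45.6) of RO-3066 boundary cells, and in 55.2% and 35.3% of other cells. By this measure the set named for the G1 to S boundary also holds cells with the histone messages of S phase. Its licensing and mitotic levels lie on the G1 and early S side.

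**Figure D4:**
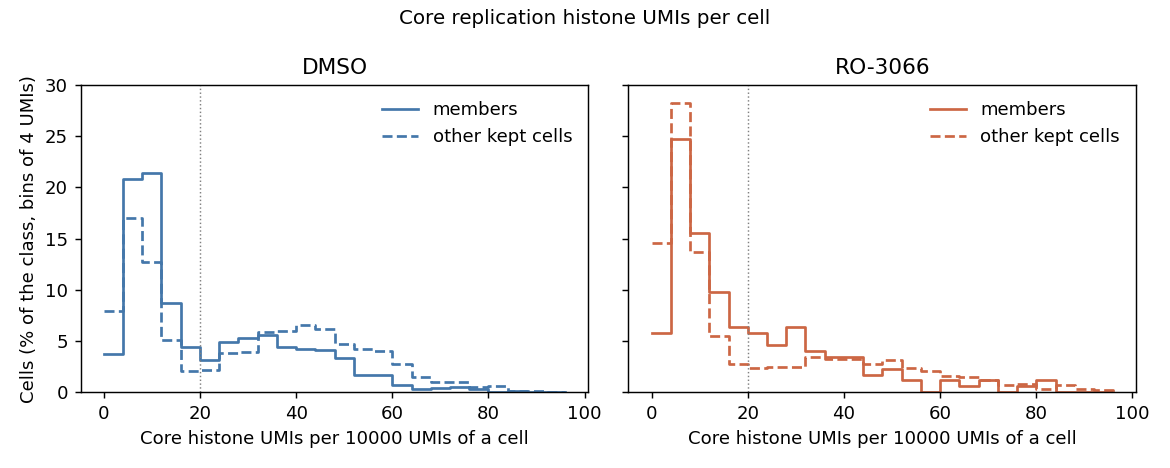
Percentage of boundary cells (members, solid) and other kept cells (dashed) of the DMSO and RO-3066 libraries (vertical axis) by core replication histone UMIs per 10000 UMIs of the cell (horizontal axis, bins of 4 UMIs). The dotted line marks 20 UMIs, which 40.9% of DMSO and 37.9% of RO-3066 boundary cells reached.

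The boundary cells were also split by Ung, after first values had been seen. Ung is a gene of the rule, so a cell without it was chosen on Ccne1 and Ccne2 alone, and the classes differ in those genes by construction: Ccne2 was at 161 CPM in cells high in Ung and 219 CPM in cells without it in DMSO, and at 128 and 216 CPM in RO-3066. The class values that follow are descriptions. Cells with at least 2 Ung UMIs and 100 CPM were 274 in DMSO and 54 in RO-3066, and cells with no Ung UMI were 295 and 39. Core histones summed to 1499 CPM in the DMSO cells high in Ung, 2289 CPM in the 471 cells low in Ung and 2662 CPM in those without a UMI. In RO-3066 the same classes had 1161, 1921 and 3687 CPM. Hist1h1b followed the same order, at 903, 1528 and 1798 CPM in DMSO and at 416, 930 and 1742 CPM in RO-3066. At least 20 histone UMIs per 10000 were seen in 19.4% (14.9 to 24.6), 45.7% and 53.1% (47.2 to 58.9) of the DMSO classes, and in 12.2% (4.63 to 24.8), 37.2% and 80.6% (62.5 to 92.5) of the RO-3066 classes.

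Over genes, 29 of 44 core histones were lower in DMSO cells high in Ung than in those without a UMI (median -0.77), where 2.11% of 9231 genes were lower and 1.08% higher. In RO-3066 41 of 44 were lower (median -1.5), where 9.34% of 9583 genes were lower and 14.2% higher. G2 and M phase genes were lower in 27 of 55 (median -0.58) and 36 of 55 cases (median -0.96). Licensing medians were 0.12 and 0.19 and fork medians -0.02 and -0.01. Ccnd1 ran against the histones, with 36.6, 32.9 and 29.0 CPM in the DMSO classes and 65.1, 37.7 and 14.3 CPM in the RO-3066 classes. The median depths were 19233.5, 21950 and 20651 UMIs in DMSO and 27506.5, 34042 and 16233 in RO-3066, so the RO-3066 cells without an Ung UMI were the shallowest, and the part of depth was not tested.

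Boundary cells were then placed along each list by ranking thinned cells into quintiles, which left out 7 boundary and 51 other cells in DMSO and 20 and 58 in RO-3066. Along the licensing list their share went from 1.44% of the lowest quintile through 7.63%, 19.1% and 34.7% to 51.3% of the highest in DMSO, and from 0.826% through 2.28%, 4.34% and 8.49% to 20.1% in RO-3066. For fork genes the highest quintile held 48.8% boundary cells in DMSO and 29.0% in RO-3066, and the lowest 4.42% and 0.413%. In RO-3066 the fourth quintile was at 4.14%, so most of the change lay in the top quintile.

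Along the G2 and M phase list the share peaked in the second quintile of DMSO cells, at 52.2%, with 36.0% in the lowest, 23.6% in the third, 2.21% in the fourth and 0.111% in the highest. In RO-3066 it went from 15.9% in the lowest quintile through 10.6%, 6.2% and 2.28% to 1.04%. Along core histones, from the lowest quintile up, the share was 20.4%, 32.6%, 31.2%, 19.1% and 10.8% in DMSO, highest in the second, and 2.89%, 7.25%, 9.50%, 11.8% and 4.55% in RO-3066, highest in the fourth. Of the tenth of unthinned cells richest in G2 and M phase UMIs, 0 of 458 DMSO cells (up to 0.802%) and 3 of 250 RO-3066 cells (1.2%) were boundary cells. Of the tenth richest in histone UMIs, 40 of 458 (8.73%) and 10 of 250 (4.0%) were.

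**Figure D5:**
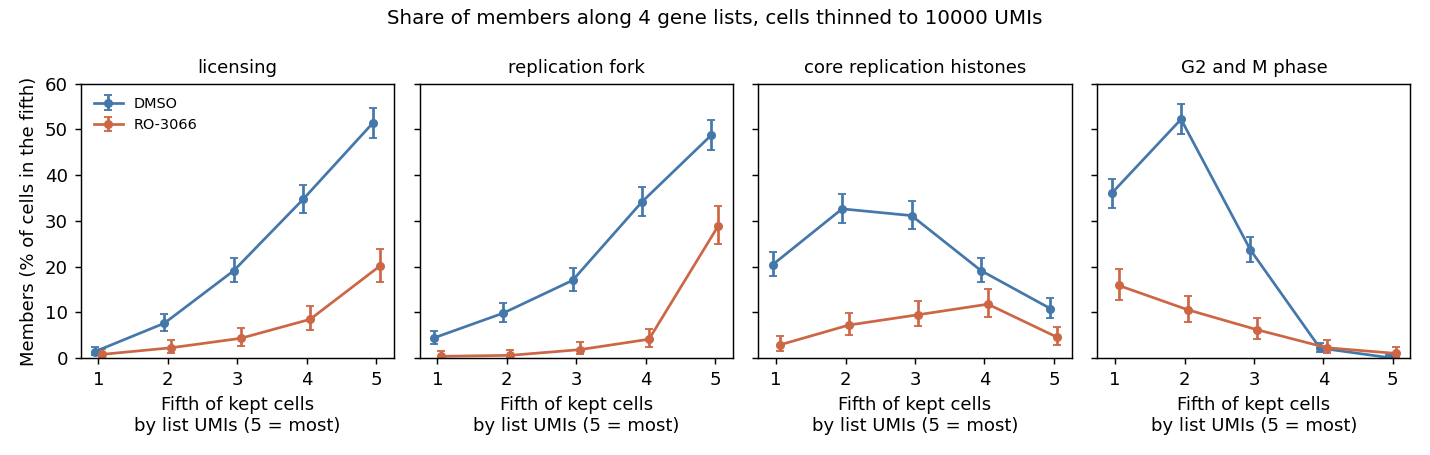
Percentage of boundary cells (vertical axis, exact 95% intervals as bars) in each quintile of kept cells ranked by the UMIs of a list (horizontal axis, 5 is the most) after thinning to 10000 UMIs, for 4 lists and both libraries. Along the licensing list the share was highest in the top quintile (51.3% and 20.1%), and along the G2 and M phase list it was lowest there (0.111% and 1.04%).

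The levels also followed the amount of the 3 genes below the limit and, with exceptions, above it. Cdc6 was at 14.9 CPM in DMSO cells with 0 UMIs of the 3 genes, 29.9 CPM at 50 to 100 CPM, 46.6 CPM at 100 to 200, 58.2 CPM at 200 to 300 and 78.1 CPM at 400 or more. In RO-3066 the same classes had 21.8, 36.8, 52.2, 65.4 and 73.8 CPM, the last in 17 cells at a median of 10930 UMIs. At 300 to 400 CPM of the 3 genes Cdc6 was at 70.6 CPM in DMSO and at 61.2 CPM in RO-3066. Ccnb1 went the other way, from 136 CPM at 0 to 40.8 CPM at 100 to 200 and 31.5 CPM at 200 to 300 in DMSO, and from 113 to 30.2 and 23.6 CPM in RO-3066. At 300 to 400 and at 400 or more Ccnb1 was at 26.8 and 33.3 CPM in DMSO and at 23.1 and 21.5 CPM in RO-3066. Cells just under the limit were thus close to the boundary cells in these genes, and the limit cuts a graded series.

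Megakaryocyte, platelet and stem cell genes mostly had levels near those of other cells. Of 20 megakaryocyte and platelet genes measured in DMSO and 22 in RO-3066, 0 were higher or lower (medians 0.06 and -0.06), and of 30 and 32 stem cell genes 0 were (medians 0.02 and -0.03). Pf4, itself limited by the choice of kept cells, was at 644 against 658 CPM in DMSO and at 366 against 432 CPM in RO-3066. Hlf, a stem cell transcription factor gene, was at 83.9 against 97.0 CPM and at 106 against 144 CPM. Mecom, another, was at 102 against 96.5 CPM and at 134 against 114 CPM. Summed markers of lymphoid cells were at 0.045 and 0.183 CPM in the boundary cells of DMSO and RO-3066, those of dendritic cells at 1.40 and 0.183 CPM and those of mast cells and basophils at 3.29 and 6.75 CPM. Erythroid markers summed to 342 and 654 CPM, against 322 and 749 CPM in other kept cells, mostly from Hbb-bt (330 and 643 CPM in boundary cells). Neutrophil and monocyte markers summed to 204 and 143 CPM, against 186 and 161 CPM, with Prtn3 at 149.9 and 81.4 CPM in boundary cells. Of the erythroid list 2 of 9 genes were higher and 0 lower in DMSO, and 0 of 8 higher and 1 lower in RO-3066. Among the erythroid markers Epor was at 10.9 against 6.75 CPM in DMSO and at 9.31 against 6.69 CPM in RO-3066. Of the neutrophil and monocyte list 0 of 6 were higher and 1 lower in DMSO, and 0 of 6 were either in RO-3066. Over all genes of at least 5 CPM, 1.13% were higher and 1.78% lower in DMSO, and 3.31% and 2.16% in RO-3066.

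Metabolic lists were also near those of other cells. Among glycolysis genes 0 of 21 were higher or lower in DMSO (median 0.05), and 1 of 22 was higher in RO-3066 (median 0.16). Of 30 ribosome biogenesis genes 0 passed in either library (medians 0.07 and 0.19), though 26 in DMSO and 27 in RO-3066 had a ratio above 0. Of 21 cholesterol synthesis genes 0 passed (medians 0.02 and -0.09). Of the p53 targets 1 of 18 was higher and 1 lower in DMSO (median -0.05), and 0 of 25 higher and 2 lower in RO-3066 (median -0.23). Ratios were above 0 for 7 of the 18 and 4 of the 25. Mdm2, the ubiquitin ligase of p53, was at 20.5 against 23.1 CPM and at 23.2 against 32.7 CPM.

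The last comparison set the RO-3066 boundary cells against the DMSO boundary cells, with the same ratio in other kept cells beside it. Both classes were set by the same limit on the same 3 genes, and the median depth of boundary cells was 20947 UMIs in DMSO against 30285 UMIs in RO-3066. Among boundary cells 118 of 5733 genes were at least 1.5-fold higher in RO-3066 (2.06%) and 88 lower (1.53%), and among other cells 165 of 5747 were higher (2.87%) and 118 lower (2.05%). From 15000 to under 40000 UMIs, 121 were higher and 113 lower between boundary cells. Over genes of at least 5 CPM, on which lists were counted, 4.93% were higher and 1.73% lower between boundary cells, and 4.24% and 1.92% between other cells. The replication lists lay close between the boundary cells. Licensing had a median of 0.00, with 0 of 19 genes past 1.5-fold, nucleotide supply 0.05 with 0 of 18, and the fork list 0.21 with 1 of 35 higher. In other cells these medians were 0.19, -0.21 and 0.03. Cdc6 was at 1.0-fold (0.888 to 1.12), Rrm2 at 0.979-fold and Uhrf1 at 1.2-fold (1.12 to 1.30) between boundary cells.

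Between boundary cells 2 of 41 core histone genes were lower in RO-3066 and 1 higher (median -0.10, with -0.39 from 15000 to under 40000 UMIs and 0.01 with equal weight per cell), and in other cells 24 of 43 were lower and 0 higher (median -0.60). All 5 linker histones were lower in other cells (median -0.81), and 1 of 5 in boundary cells (median -0.42, and -0.70 from 15000 to under 40000 UMIs). Hist1h1b was at 0.633-fold (0.614 to 0.652) in boundary cells and 0.381-fold (0.376 to 0.385) in the rest, and its log2 ratio between boundary cells of 15000 to under 40000 UMIs was -0.96. The difference between the comparisons was not tested.

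G2 and M phase genes had a median of 0.15 between boundary cells (0.05 from 15000 to under 40000 UMIs), with 5 of 54 higher and 2 lower, and of -0.26 between other cells, with 0 of 55 higher and 3 lower. In boundary cells of 15000 UMIs or more the list summed to 5945 CPM in RO-3066 and 5777 CPM in DMSO. Mki67, the proliferation antigen Ki-67, was 1.70-fold (1.60 to 1.81) higher in RO-3066 boundary cells and at 0.939-fold in other cells, but short of 1.5-fold (0.50 on the log2 scale) from 15000 to under 40000 UMIs. Cenpf was 1.88-fold (1.66 to 2.12) and 1.09-fold. Cenpa was at 0.438-fold (0.374 to 0.510) and 0.853-fold, and Ccnb2 at 0.425-fold (0.358 to 0.502) and 0.960-fold.

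Genes outside the cell cycle differed between the libraries in boundary cells and in other cells. For p53 targets 11 of 25 were higher in RO-3066 boundary cells (median 0.49), and 11 of 23 in other cells (median 0.56). Cdkn1a was 1.92-fold (1.66 to 2.22) higher between boundary cells and 3.48-fold (3.26 to 3.70) between other cells, but between boundary cells of 15000 to under 40000 UMIs its log2 ratio was 0.56, short of 1.5-fold. Of 22 megakaryocyte and platelet genes 9 were higher and 1 lower (median 0.48), against 11 and 1 in other cells (median 0.56). Itga2b, the integrin chain CD41, was 1.53-fold higher in boundary cells and 1.64-fold in other cells, with a log2 ratio of 0.43 between boundary cells of 15000 to under 40000 UMIs. Pf4, itself limited by the choice of kept cells, was at 0.569-fold (0.543 to 0.596) and 0.657-fold. The megakaryocyte and platelet list summed to 2235 CPM in RO-3066 and 2168 CPM in DMSO boundary cells, and to 2372 and 2152 CPM in other cells. Glycolysis genes were lower in 10 of 22 cases with 1 higher (median -0.54), and in other cells in 13 of 21 (median -0.65). Ldha, lactate dehydrogenase A, was at 0.608-fold (0.589 to 0.628) and 0.575-fold.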

How the data were processed

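The authors deposited raw UMI counts, as 1 matrix of genes by barcodes for each library. Cell Ranger 5.0.1 and mm10 are named per the submitters' processing notes, and the deposited matrix headers name 7.1.0. Which version made the counts, with which annotation and with or without intron reads, is not stated there. Coordinates are from GENCODE vM21 (mm10), which held 32158 of 32285 gene identifiers.

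UMIs were summed over cells, scaled to CPM and compared as log2 of CPM plus 1. Folds carry exact conditional Poisson intervals and shares exact Clopper-Pearson intervals. No test was made, as each group has 1 library. In simulated counts 50 of 50 genes raised 2-fold and 50 of 50 lowered 2-fold were recovered in each library, and 0 of 100 changed 1.2-fold were called. These counts were Poisson sums from a common profile, without variation between cells or choice of cells by a gene, so they cover counting error only. Likely doublets, 301 DMSO and 115 RO-3066 barcodes by simulated neighbours, were kept. They included 28 DMSO and 0 RO-3066 boundary cells.

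The cells, the 24 lists and the named genes were chosen with earlier results of these data known. Named are the 3 genes of the rule, 41 genes of the cell cycle and of 2 lineages, the 10 highest and 10 lowest in both libraries at 50 CPM or more, the 10 most apart between libraries, and 3 genes per list that differed most. Dbf4 was named after its value was seen. Some genes that this rule takes are not reported here. Alternatives were other limits, depths, filters, scalings, weights and choices of rule genes. Choices by Ung alone, or by Ccne1 and Ccne2, took cells with at least 100 CPM and 2 UMIs of those genes. All remaining kept cells were then the others. Python 3.11.15, numpy 2.4.6, scipy 1.17.1, pandas 2.3.3, scikit-learn 1.9.0 and matplotlib 3.10.9 were used.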

Additional observations from a re-analysis of the deposited data

Results flagged for a closer look

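Barcodes outside the limits on kept cells also reached 200 CPM of Ung, Ccne1 and Ccne2. Among DMSO barcodes with 50000 UMIs or more, 135 of 540 did (25%, 21.4 to 28.9), at a median of 78645.5 UMIs. The share of all kept DMSO cells, 22.7%, lies within that interval, but the shares of the deepest kept DMSO cells lie below it. Those were 4.93% from 30000 to under 40000 UMIs and 6.17% from 40000 to under 50000 UMIs. Unlike kept cells, the barcodes with 50000 UMIs or more had no limit on Pf4. Of DMSO barcodes of 5000 to under 50000 UMIs with at least 0.3% Pf4, 203 of 995 reached 200 CPM (20.4%, 17.9 to 23.0). Among RO-3066 barcodes with 50000 UMIs or more, 10 of 1161 did (0.861%, 0.414 to 1.58), at a median of 74002 UMIs. Of RO-3066 barcodes with high Pf4 and 5000 to under 50000 UMIs, 0 of 97 did, which allows up to 3.73%. These barcodes enter no comparison above.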

How the results depend on the processing

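No paired analysis was possible because each condition has 1 library. The shares of boundary cells in DMSO and RO-3066 were 41.4% and 17.6% at a limit of 100 CPM, 3.82% and 0.681% at 400, and 29.8% and 12.3% when called on thinned cells. The calls on thinned cells left out kept cells under 10000 UMIs. Higher genes in RO-3066 numbered 86 at a limit of 100 and 89 in thinned calls, and at 400, with 17 cells, 713 were higher and 705 lower. Thinned calls also moved the share of higher among called RO-3066 genes from 61.4% to 46.4%. At 2-fold 4 genes were higher and 65 lower in DMSO, and 25 and 28 in RO-3066. From 5 CPM up, 103 were higher in DMSO, and 314 higher and 205 lower in RO-3066. From 100 CPM up, 21 and 37 passed in DMSO and 39 and 23 in RO-3066, and with no minimum 147 and 194, and 535 and 421. With other cells weighted to the depth of boundary cells 32 DMSO genes were higher. With cells chosen by Ung alone 31 DMSO genes were higher and 168 RO-3066 genes lower. In RO-3066 some genes changed direction: Dck (-0.27) at a limit of 400, and, by Ung alone, E2f8 (-0.067), Hist1h1b (-0.97), Hist1h1a (-0.23) and Fbxo5 (-0.043). The core histone median was then -0.97 in DMSO and -0.90 in RO-3066, against -0.26 and 0.22 by Ccne1 and Ccne2. The cause was not tested. Of 124 named values past 1.5-fold, 76 were past it under every alternative run on them.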

Other observations

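Genes outside every list were also higher in the boundary cells of both libraries. They were chosen after their values were seen. Atad2, a bromodomain ATPase gene, was at 283 against 183 CPM in DMSO (log2 0.63) and at 288 against 175 CPM in RO-3066 (0.72). Cgas, the sensor of cytosolic DNA, was at 40.6 against 22.2 CPM (0.85) and at 48.7 against 29.8 CPM (0.69). Lmna, which encodes A-type lamins, was at 20.03 against 11.07 CPM (0.80) and at 27.0 against 16.9 CPM (0.65). Bok, a BCL2 family gene, was at 26.0 against 14.7 CPM (0.79) and at 26.1 against 10.7 CPM (1.22). Samd1 was higher by 0.72 and 1.0, Sox12 by 0.68 and 0.75 and Zfp367 by 0.80 and 0.90 on the log2 scale.

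Mt1, a metallothionein gene, was at 210.0 against 172.6 CPM in DMSO (0.28) and at 114 against 61.7 CPM in RO-3066 (0.88), so that its level was lower in RO-3066 while its ratio between the classes was larger.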
